A study of Mus musculus with 9 samples.

Results

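Lztr1, 5 small GTPases of the Ras family (Rit1, Mras, Nras, Hras and Rras2) and the Raf kinases Araf and Braf were followed in sorted stem and progenitor cells of mouse bone marrow. The 8 genes were taken by name from the 38215 genes of the table and all 8 were found and expressed above the filter. Hras is listed there under its older symbol, Hras1, and was matched by its gene identifier. RNA came from 9 C57BL/6J mice, all of them Jak2V617F and treated with tamoxifen. Of these, 5 are titled EV, an abbreviation left unexplained in the labels. The other 4 also carry sgZrsr2 in their genotype, which the design text calls loss of Zrsr2. The labels number the mice 1 to 5 in the EV group and 1, 2, 3 and 5 in the sgZrsr2 group. The cells, called LSK, lack lineage markers and carry Sca1 and Kit; they were sorted as positive for GFP and for mCherry at the terminal time point. Age, and what drives the Jak2 mutation, are not given in the labels.

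Ras proteins are switches that bind GTP when receptors such as Kit or the thrombopoietin receptor are active, and pass the signal to Raf kinases, which start the MEK and ERK cascade. LZTR1 is the substrate receptor of a CUL3 ubiquitin ligase that marks RIT1, MRAS and the classical RAS proteins for destruction, so it acts on protein and not on RNA. LZTR1 contains a minor intron, the rare class that needs the minor spliceosome and its factor ZRSR2. The comparison of sgZrsr2 with EV therefore gives the RNA level of this gene and of its targets where Zrsr2 was targeted. Values per gene do not show splicing or protein.

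Minor introns typically begin with letters that fit NTATCCTT and carry TCCTTAAC near their 3′ end. Both were searched on the strand of the gene, and they do not overlap each other. An intron of Lztr1 and one of Rit1, from transcripts of GENCODE M21 (GRCm38), are shown because they illustrate the ends that were searched. They hold neither motif, so no base is in capitals.
Lztr1 intron 14, chr16:17522724-17522967, plus strand, first bases: gtctgcctggga
Lztr1 intron 14, last bases: gcccctaggctcagggactttttggtgcag
Rit1 intron 4, chr3:88726069-88726279, plus strand, first bases: gtactaaaccca
Rit1 intron 4, last bases: atgcattctggatcttttgtttccttctag
An intron could be read only where another annotated transcript keeps it as exon. Of 15344 introns read in this way, 0.365% began with NTATCCTT, 0.13% held TCCTTAAC in the last 40 bases and 7 had both. For the main transcript of Lztr1, 3 of 20 introns could be read, and none of the 3 held either motif; the other 17 were not read. The annotation marks that transcript of Lztr1 as having a splice site outside the usual letters that is conserved in other species, a mark carried by 58 of 21965 protein-coding genes (0.264%). That mark does not name the class of the intron. A separate mark for U12 introns, another name for minor introns, is carried by 68 of the 21965 genes (0.31%) and by no member. The main transcript of Araf carried a different mark for unusual splice sites, and those of the other 6 members none. The marks cover unusual splice sites alone, so their absence does not show that a gene lacks a minor intron.

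The GTPases share their effector region, which touches Raf in the GTP-bound form. The coding bases around it are shown for 4 of the GTPases because they show how alike these genes are and whether reads could be exchanged between them. Capitals mark 18 bases whose translation was the same in all 4.
Hras: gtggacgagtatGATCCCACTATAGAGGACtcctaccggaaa
Mras: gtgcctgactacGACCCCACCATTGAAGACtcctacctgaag
Rras2: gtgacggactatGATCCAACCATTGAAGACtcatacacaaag
Rit1: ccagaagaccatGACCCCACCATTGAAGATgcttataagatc
The capitals cover codons 33 to 38 in Hras, 43 to 48 in Mras, 44 to 49 in Rras2 and 51 to 56 in Rit1. Over the 42 bases Mras and Rras2 differed at 9, and Rit1 differed from the other 3 at 16 to 18. The longest run of identical coding bases between any 2 of these 4 genes was 17, shared by Hras with Mras and by Mras with Rit1. Nras is not among the 4, so these values set no limit on how alike it is to them. In all 9 libraries the counts of Lztr1, Araf and the 5 GTPases were whole numbers (within 1e-06), and those of Braf in 6 libraries. RSEM, the program that made the counts, leaves fractions where it divides reads between genes. Braf overlaps Ndufb2 on the opposite strand by 146 bases, and the strand setting of the counting is not given, so reads there could belong to either. A pseudogene inside Braf on its own strand held 4 to 18 counts.

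The libraries held 23238264 to 45585531 counts. sgZrsr2 mice 1 and 2 had the smallest totals, the fewest detected genes (16169 and 16819 against 18354 to 19411) and the highest mitochondrial shares (4.04% and 4.07% against 2.27% to 3.36%), and each was the nearest library to the other. EV mouse 5 and sgZrsr2 mice 3 and 5 stood apart in the erythroid marker Car1, at 25.4 to 39.3 CPM against at most 0.422 CPM in the other 6. CPM, the unit of all levels here, is the count scaled to library size with TMM factors. The LSK markers Kit, Ly6a (Sca1) and Cd34 were present in all 9 libraries, with Kit at 247 to 632, Ly6a at 14.8 to 49.3 and Cd34 at 544 to 705 CPM. Transcripts of mature cells were also present: the 5 neutrophil markers summed to 5.55 to 129 CPM with EV and 6.76 to 158 CPM with sgZrsr2 (highest in EV mouse 5 and sgZrsr2 mouse 3; Ly6g at 0 in 6 libraries). The 3 monocyte and macrophage markers summed to 18.8 to 39.2 and 19.4 to 52.3 CPM. Itgam gave most of this, at 17.3 to 48 CPM, with C1qa at 0 to 3.43 and Adgre1 at 1.2 to 3.05 CPM. The 3 B cell markers summed to 2.32 to 23.4 and 3.52 to 12.4 CPM. The 3 T cell markers summed to 0.444 to 1.7 and 0.445 to 1.95 CPM (Cd3e at 0 in 8 libraries). Zrsr2, the targeted gene, was at 50.6 to 62.2 CPM with EV and 31.7 to 44.4 CPM with sgZrsr2, with no overlap (edgeR log2 fold change -0.46, SE 0.12, adjusted p = 0.714). In bulk samples, fewer cells of a type and less RNA per cell cannot be told apart.

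Lztr1 showed no difference beyond the spread between mice (ENSMUSG00000022761; chr16:17508688-17526333, plus strand, in GRCm38 as in the table, which holds for all coordinates of genes here). EV mice 1 to 5 gave 63.9, 60.3, 38.3, 55 and 62.3 CPM, and sgZrsr2 mice 1, 2, 3 and 5 gave 49.7, 50.7, 60.4 and 58.2 CPM. The lowest library was EV mouse 3, and the 4 sgZrsr2 libraries lay inside the range of the EV libraries. The means were 56 ± 10.4 CPM (SD, n = 5) and 54.8 ± 5.36 CPM (SD, n = 4), so that sgZrsr2 stood at 97.9% of EV. The log2 fold change was -0.03 (SE 0.15, 95% confidence interval -0.36 to 0.3; edgeR adjusted p = 0.965; two-sided exact permutation p = 0.825). The interval does not reach -0.46, the point estimate for Zrsr2, but it overlaps the 95% confidence interval of Zrsr2 (-0.73 to -0.19). It does not exclude smaller changes in either direction. EV mouse 3 decided the value: without it the log2 fold change was -0.15 (unadjusted p = 0.19), and without EV mouse 1 it was 0.02.

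Rit1, a GTPase without the lipid anchor of the classical Ras proteins and a main target of LZTR1, was higher in each sgZrsr2 library than in every EV library (ENSMUSG00000028057; chr3:88716838-88731049, plus strand). The 5 EV libraries, mice 1 to 5, held 14.6, 12.6, 10.9, 11.8 and 15.5 CPM, and sgZrsr2 mice 1, 2, 3 and 5 gave 21, 16.9, 18.3 and 17.3 CPM. The highest EV library, mouse 5, and the lowest sgZrsr2 library, mouse 2, were 15.5 and 16.9 CPM, so the gap was narrow. The means were 13.1 ± 1.94 CPM (SD, n = 5) and 18.4 ± 1.86 CPM (SD, n = 4), or 140% of EV with sgZrsr2. Against EV, sgZrsr2 gave a log2 fold change of 0.49 (SE 0.15, 95% confidence interval 0.15 to 0.83), with an edgeR unadjusted p = 0.00898 and an edgeR adjusted p = 0.714, so Rit1 did not pass the threshold. The two-sided exact permutation p was 0.0159, the smallest that 5 against 4 samples can give. Each value rested on 349 to 752 counts.

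Rit1 was the one member of 8 with an unadjusted p under 0.05, where 6.85% of all 14944 genes tested were below that limit (2.98% lower and 3.87% higher with sgZrsr2). It was also the one member whose groups did not overlap, against 3.06% of all genes (1.75% on the higher side). No member, and none of the 14944 genes (0%), passed an adjusted p of 0.05 in edgeR, with 1024 genes at an unadjusted p under 0.05. The DESeq2 Wald test called 16 genes (0.107%) and no member. Without EV mouse 5 and sgZrsr2 mice 3 and 5, the libraries with Car1, the log2 fold change of Rit1 was 0.61 (edgeR adjusted p = 0.363). The summed level of the 5 erythroid markers was 15.6 to 47.4 CPM with EV and 44.1 to 91.2 CPM with sgZrsr2, and that of the 5 megakaryocyte and platelet markers 118 to 281 and 213 to 454 CPM. Leaving out the libraries with Car1 left mice 1 and 2 alone in the sgZrsr2 group and did not level the erythroid sums. These were still 47.3 and 44.1 CPM in sgZrsr2 mice 1 and 2, and 15.6 to 22 CPM in EV mice 1 to 4. Hbb-bt alone gave 46.2 and 42.3 CPM of them, against 13.5 to 20.4 CPM. Car1 and Klf1 were at most 1.52 CPM in sgZrsr2 mice 1 and 2. The megakaryocyte and platelet sums were 250 and 213 CPM against 118 to 274 CPM. Itga2b alone gave 235 and 205 CPM of them, against 109 to 263 CPM. Vwf, Pf4 and Gp1bb were instead high in the libraries with Car1. Vwf was at 53.2 to 91.1 CPM there and at 4.65 to 11.4 CPM in the others. Ppbp was at most 1.73 CPM in any library. The part of either marker group in the difference of Rit1 was not tested.

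**Figure D1:**
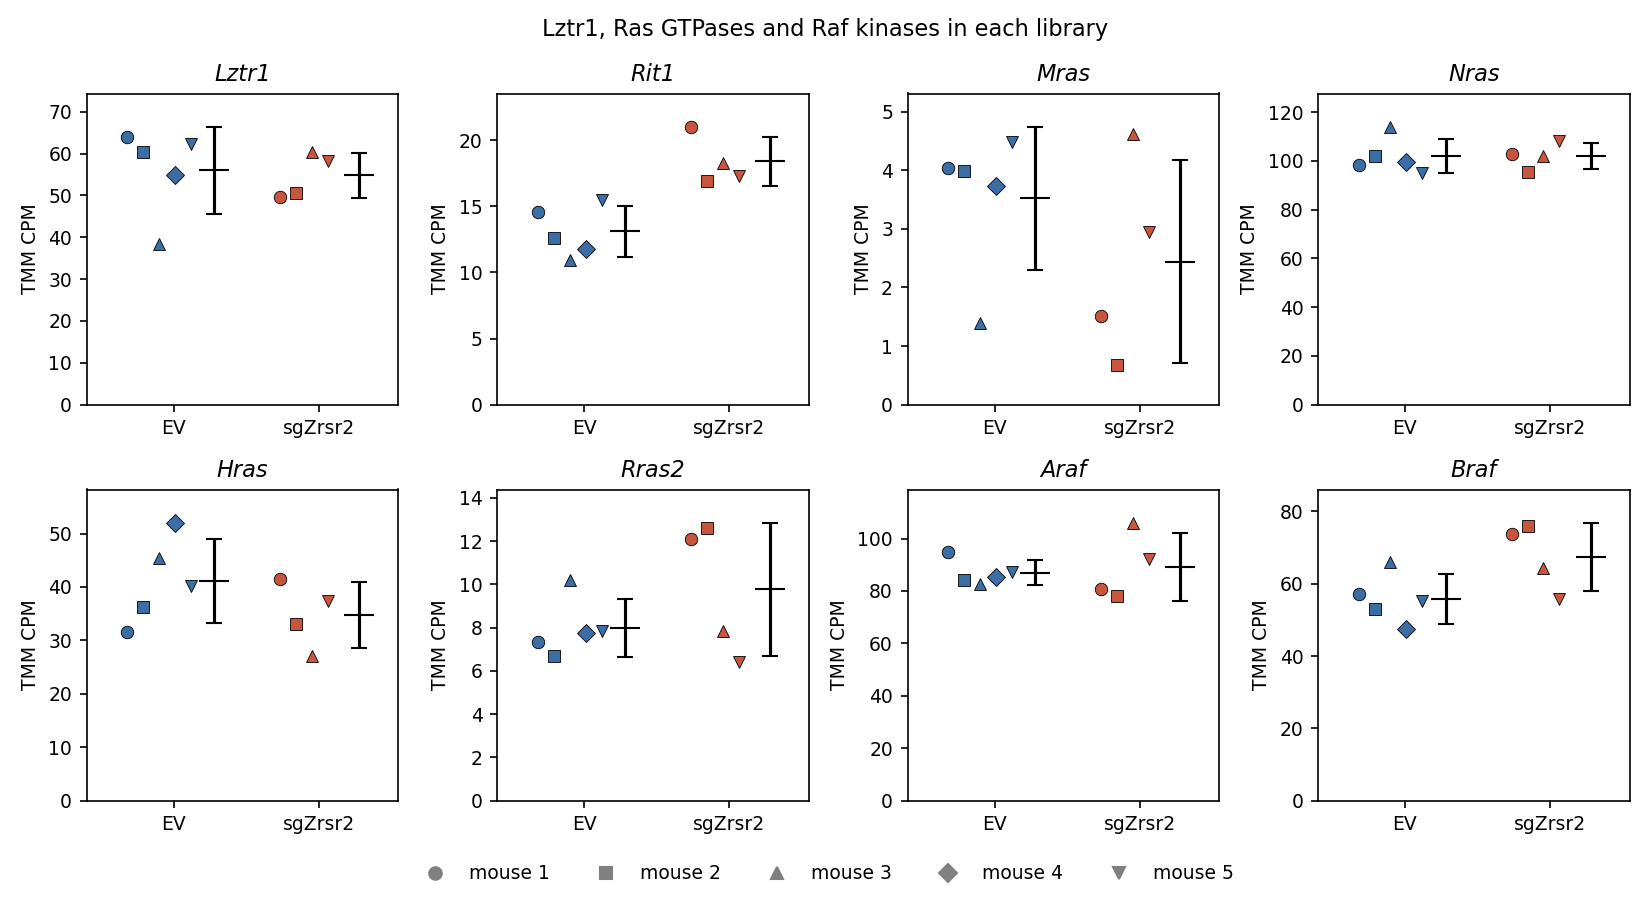
TMM-scaled CPM (vertical axes, from 0) of the 8 genes in each library, by group. Symbols give the mouse number, and the bars beside them the mean and SD (n = 5 EV, n = 4 sgZrsr2). Rit1 is the one gene whose groups do not overlap, with EV at 10.9 to 15.5 CPM and sgZrsr2 at 16.9 to 21 CPM.

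Mras, the GTPase that joins SHOC2 and a phosphatase to switch Raf kinases on, was the lowest member and varied most (ENSMUSG00000032470; chr9:99385422-99436881, minus strand). EV mice 1 to 5 gave 4.03, 3.98, 1.4, 3.73 and 4.48 CPM, and sgZrsr2 mice 1, 2, 3 and 5 gave 1.51, 0.68, 4.62 and 2.95 CPM. EV mouse 3 and sgZrsr2 mice 1 and 2 were low, and the groups overlapped. Its counts per library were 17 to 190. On the log2 scale the difference was -0.52 (SE 0.51, 95% confidence interval -1.65 to 0.61; edgeR adjusted p = 0.806). Single libraries moved it from -1.03 (without sgZrsr2 mouse 3) to -0.22 (without sgZrsr2 mouse 2). Without the 3 Car1 libraries it was -1.58 (unadjusted p = 0.0252, edgeR adjusted p = 0.39), where the sgZrsr2 group is mice 1 and 2 alone.

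Nras, a classical Ras protein and the steadiest of the members, showed no difference beyond the spread between mice (ENSMUSG00000027852; chr3:103058339-103067914, plus strand). The 5 EV libraries, mice 1 to 5, held 98.5, 102, 114, 99.6 and 95.2 CPM, and sgZrsr2 mice 1, 2, 3 and 5 gave 103, 95.3, 102 and 108 CPM. The highest library was 1.19 times the lowest, and both groups had a mean of 102 CPM. The fitted log2 difference was 0.01 (SE 0.09, 95% confidence interval -0.2 to 0.21; edgeR adjusted p = 0.986), the narrowest interval of the 8.

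Hras, the classical Ras protein named after the Harvey sarcoma virus, varied within both groups, which overlapped (ENSMUSG00000025499; chr7:141189105-141194005, minus strand). EV mice 1 to 5 gave 31.6, 36.3, 45.5, 52 and 40.2 CPM, and sgZrsr2 mice 1, 2, 3 and 5 gave 41.5, 33.1, 27.1 and 37.3 CPM. EV mouse 4 was the highest and sgZrsr2 mouse 3 the lowest, and the other 7 libraries of the 2 groups were interleaved. edgeR gave a log2 fold change of -0.24 (SE 0.17, 95% confidence interval -0.62 to 0.13; edgeR adjusted p = 0.742). Without EV mouse 4 this was -0.15, and without sgZrsr2 mouse 3 it was -0.14.

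Rras2, also called TC21, a relative of the classical Ras proteins, was high in 2 of the 4 sgZrsr2 libraries (ENSMUSG00000055723; chr7:114046785-114117781, minus strand). The 5 EV libraries, mice 1 to 5, held 7.31, 6.7, 10.2, 7.75 and 7.85 CPM, and sgZrsr2 mice 1, 2, 3 and 5 gave 12.1, 12.6, 7.86 and 6.43 CPM. sgZrsr2 mice 1 and 2 were above all EV libraries, while sgZrsr2 mouse 5 was below all of them. The log2 fold change was 0.29 (SE 0.24, 95% confidence interval -0.23 to 0.82; edgeR adjusted p = 0.764). With sgZrsr2 mice 1 and 2 averaged into 1 sample it was 0.15, and without the 3 Car1 libraries 0.64 (unadjusted p = 0.0306, edgeR adjusted p = 0.411).

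Braf, the Raf kinase that most readily phosphorylates MEK, had the second smallest p among the members (ENSMUSG00000002413; chr6:39603237-39725463, minus strand). EV mice 1 to 5 gave 57.1, 53, 66.1, 47.5 and 55.2 CPM, and sgZrsr2 mice 1, 2, 3 and 5 gave 73.8, 76.1, 64.3 and 55.7 CPM. As with Rras2, sgZrsr2 mice 1 and 2 were above all EV libraries, and the groups overlapped. The means were 55.8 ± 6.81 CPM (SD, n = 5) and 67.5 ± 9.36 CPM (SD, n = 4). Against EV, sgZrsr2 gave a log2 fold change of 0.28 (SE 0.13, 95% confidence interval -0.01 to 0.56; edgeR unadjusted p = 0.0546, adjusted p = 0.714). The unadjusted p fell under 0.05 in 6 of 21 alternatives, and the log2 fold change was 0.43 without the 3 Car1 libraries and 0.22 with sgZrsr2 mice 1 and 2 averaged.

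Araf, the X-linked Raf kinase, spread more widely with sgZrsr2 than with EV around nearly the same mean (ENSMUSG00000001127; chrX:20797814-20860519, plus strand). The 5 EV libraries, mice 1 to 5, held 94.8, 84.3, 82.7, 85.2 and 87.2 CPM, and sgZrsr2 mice 1, 2, 3 and 5 gave 80.6, 77.9, 106 and 92.2 CPM. The 4 sgZrsr2 libraries spread to both sides of the EV libraries, with mice 1 and 2 below and mouse 3 above all of them. On the log2 scale the difference was 0.04 (SE 0.11, 95% confidence interval -0.21 to 0.29; edgeR adjusted p = 0.931). It was -0.06 without sgZrsr2 mouse 3 and -0.12 without the 3 Car1 libraries.

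**Figure D2:**
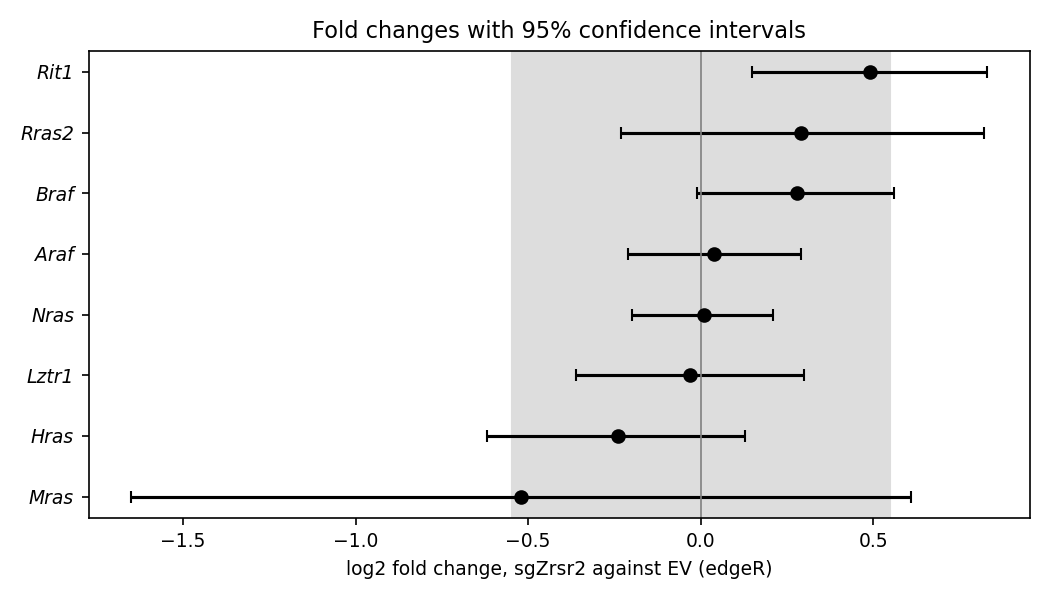
edgeR log2 fold change of sgZrsr2 against EV for each of the 8 genes (points) with its 95% confidence interval (lines). The grey band holds the central 90% of all genes tested, from -0.55 to 0.55. The interval of Rit1 (0.15 to 0.83) is the one that does not include 0.

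**Figure D3:**
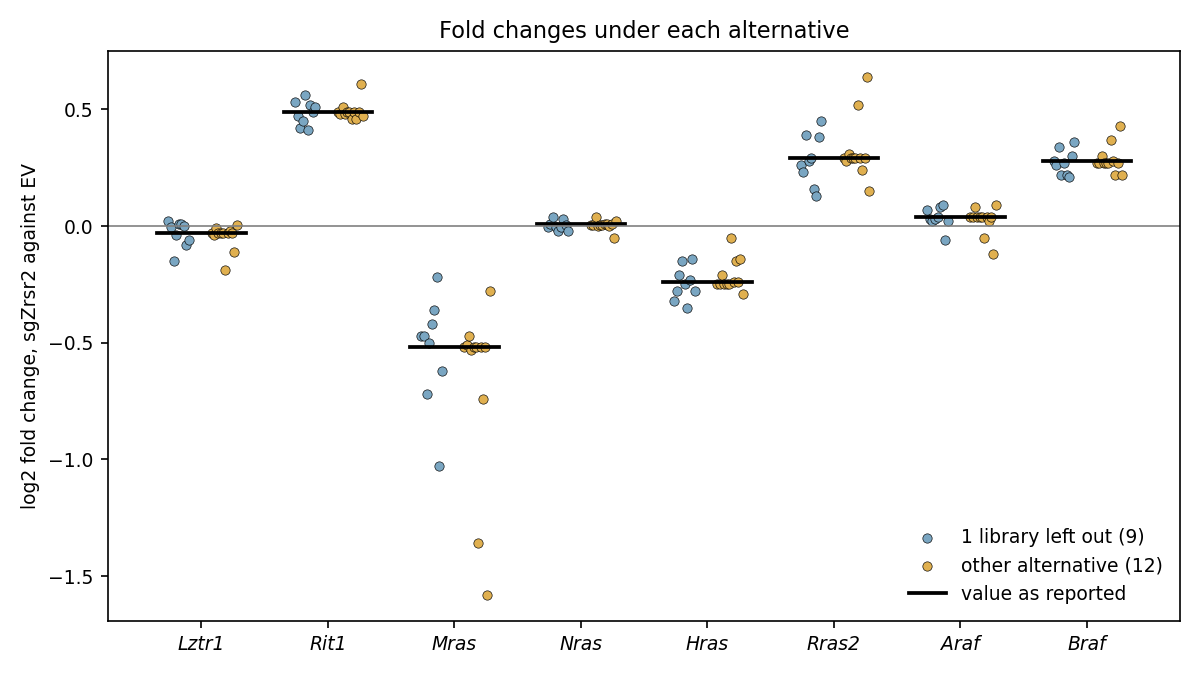
Log2 fold change of sgZrsr2 against EV for each of the 8 genes as reported (black bars), in the 9 fits that leave out 1 library (blue) and under the 12 other alternatives (orange, including DESeq2 and limma-voom). Rit1 stays between 0.41 and 0.61, Mras runs from -1.58 to -0.22, and Lztr1, Nras and Araf fall on both sides of 0.

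The plot of alternatives shows how far each member's value rested on the method and on single libraries. Rit1 was positive in all 21. Rit1 and Braf were under an unadjusted p of 0.05 with upper-quartile factors (6.99% of all genes), with library totals (6.76%), without EV mouse 3 (7.44%) and without sgZrsr2 mouse 5 (7.58%). Rit1, Mras, Rras2 and Braf were under it with limma-voom and sample quality weights (17.1%) and without the 3 Car1 libraries (11%). No member passed the adjusted threshold in any of the 21.

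Of the 8 members, 5 had a positive and 3 a negative log2 fold change, with a median of 0.02, where the median of all genes tested was -0.011 and 51.5% were negative. Across the libraries 2 arrangements recurred. Mras, Araf and Lztr1 were low in sgZrsr2 mice 1 and 2 relative to sgZrsr2 mice 3 and 5, and Rras2 and Braf were high there. EV mouse 3 was placed alike within its own group, so the arrangements were not confined to sgZrsr2 libraries. It was the lowest EV library for Mras (1.4), Lztr1 (38.3) and, narrowly, Araf (82.7 CPM). For Rras2 (10.2) and Braf (66.1 CPM) it was the highest. As a description over 9 points that share library depth and scaling, Pearson's r of log2 CPM was -0.87 between Mras and Rras2, 0.85 between Rras2 and Braf, and 0.72 between Lztr1 and Mras. Rit1 followed none of these closely, with r from -0.5 (Hras) to 0.53 (Braf), and 0.3 with Lztr1.

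Levels can be compared between genes only per length, so CPM were divided by the kilobases of exon in GENCODE M21. Its gene coordinates were identical to those of the table for 5 of the 8 members. The length is the union of the exons of all annotated transcripts of a gene, including those that are not protein-coding. Other choices of length were not tested, and the order of genes with near levels could change with them. Nras was the highest member at 19.1 ± 1.13 CPM per kb (SD, n = 9) and lay above the other 7 in every library. Araf followed at 13.4 ± 1.32, Hras at 10.3 ± 2.02 and Lztr1 at 9.07 ± 1.32 CPM per kb, each overlapping its neighbour in range. Rit1 (4.78 ± 1.02) and Braf (4.4 ± 0.699) were next and overlapped, with Rit1 above Braf in 7 of 9 libraries. Rras2 was at 2.46 ± 0.648 and Mras at 0.593 ± 0.288 CPM per kb, below the rest in all 9 libraries. Lztr1 was above Rit1 in all 9 libraries.

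**Figure D4:**
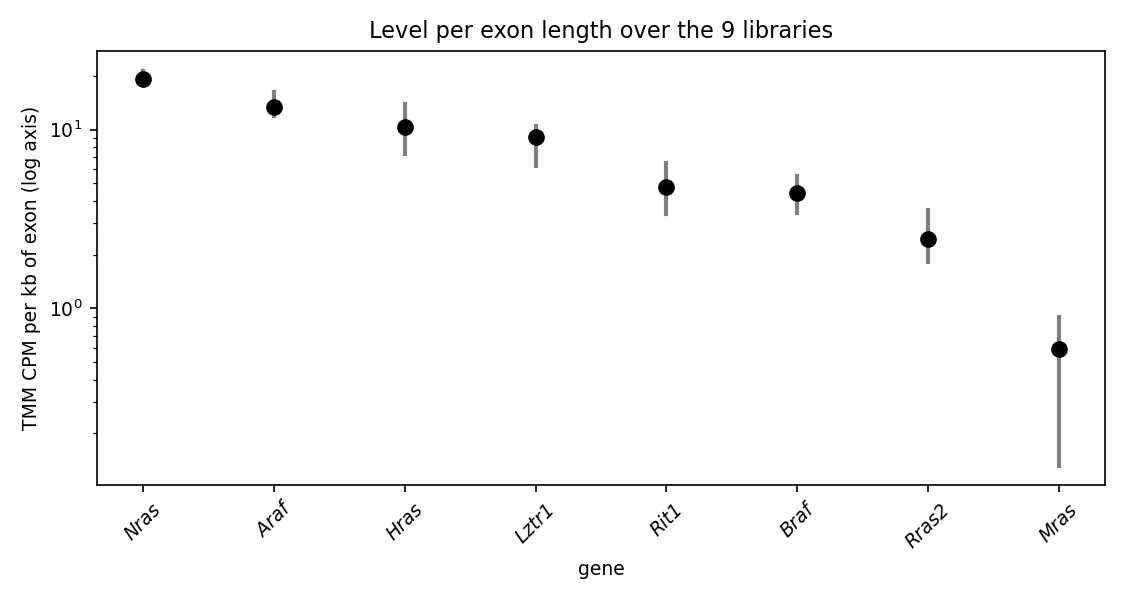
Mean TMM-scaled CPM per kb of exon over the 9 libraries (points, log axis) with the lowest and highest library (grey lines). The 8 members are ordered by their mean. Nras is the highest member at 19.1 and Mras the lowest at 0.593 CPM per kb.

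The 5 genes whose log2 CPM was most like that of Lztr1 over the 9 libraries, among 9629 others with a mean of at least 10 CPM, were Wdyhv1, Ubxn2b, Mum1, Siae and Gcdh, with r from 0.987 to 0.984. Wdyhv1 encodes an enzyme that removes the amide from N-terminal glutamine, Siae a sialic acid esterase and Gcdh a mitochondrial dehydrogenase of lysine breakdown. All 5 were lowest in EV mouse 3, with Wdyhv1 at 7.2 CPM there and 11.7 to 17 CPM in the other libraries, and Siae at 11.3 against 18.8 to 34.9 CPM. EV mouse 3 also had the lowest TMM factor, 0.894. None of the 5 passed the threshold between the groups (edgeR adjusted p 0.945 to 0.995). Among the other members with a mean of at least 10 CPM, Araf came closest to Lztr1 at r = 0.55, rank 2356.

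Around these 8 genes, 72 others of the pathway were examined by role, of which 68 were tested. Of these 40 were negative and 28 positive, with a median of -0.05, where 51.5% of all genes tested were negative. Of the 68, 3 had an unadjusted p under 0.05, where 6.85% of all genes did. None passed the adjusted threshold. Both ligase partners of LZTR1 were negative within their spread, with Cul3, the scaffold, at 176 ± 38.4 CPM (SD, n = 5) in EV and 174 ± 49.7 CPM (SD, n = 4) in sgZrsr2 mice. Rbx1, the RING subunit, was at a log2 fold change of -0.19 (SE 0.16, edgeR adjusted p = 0.765). Of the Ras genes outside the members, Rras had the smallest p, with a log2 fold change of 0.52 (SE 0.33, edgeR adjusted p = 0.735). Rit2 and Eras did not pass the filter.

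Among 12 tested adaptors and exchange factors, which load Ras with GTP, 5 were negative and 7 positive. Gab1, a docking protein of receptor kinases, averaged 16.8 ± 3.9 CPM (SD, n = 5) in EV mice against 26.6 ± 7.56 CPM (SD, n = 4) in sgZrsr2 mice, with groups that overlapped. Its log2 fold change was 0.66 (SE 0.22; edgeR unadjusted p = 0.0131, adjusted p = 0.714), and 0.45 without sgZrsr2 mouse 3, with an unadjusted p of 0.0551. Of 9 GTPase activating proteins, which switch Ras off, 3 were negative and 6 positive. Rasa1 had the smallest p of them, with a log2 fold change of 0.16 (SE 0.1, edgeR adjusted p = 0.728). Of 7 enzymes that process or move Ras proteins 6 were negative. The smallest p was that of Golga7, a partner of the Ras palmitoyl transferase, at -0.22 (SE 0.12, edgeR adjusted p = 0.714).

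Of 13 Raf partners, 9 were negative and 4 positive. The 14-3-3 protein Ywhae, of a family that binds Raf kinases, averaged 533 ± 48 CPM (SD, n = 5) in EV mice against 450 ± 43.5 CPM (SD, n = 4) in sgZrsr2 mice. Its groups did not overlap, as in 1.32% of all genes on the lower side. The fitted log2 difference was -0.24 (SE 0.11; edgeR unadjusted p = 0.0488, adjusted p = 0.714), and -0.18 without sgZrsr2 mouse 3, with an unadjusted p of 0.131. Shoc2, which acts with Mras, was at 0.28 (SE 0.17, edgeR adjusted p = 0.726); it was chosen after its values were seen, as the partner of Mras. Of 4 MEK and ERK kinases 3 were negative, with the smallest p for Map2k1 (MEK1) at -0.29 (SE 0.15, edgeR adjusted p = 0.714).

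Of 13 tested genes that respond to ERK, 10 were negative and 3 positive, with a median of -0.14, where 51.5% of all genes tested were negative. The 13 genes were measured in the same 9 libraries and are not independent, so the count is no measure of ERK activity. Ccnd1, cyclin D1, averaged 101 ± 19.9 CPM (SD, n = 5) in EV mice against 76.6 ± 1.6 CPM (SD, n = 4) in sgZrsr2 mice, with overlapping groups because EV mouse 4 was at 73.5 CPM. Its log2 fold change was -0.4 (SE 0.14; edgeR unadjusted p = 0.017, adjusted p = 0.714), and its counts were fractional in all 9 libraries. Dusp6, the ERK phosphatase, ranged from 62.9 to 311 CPM with EV and from 64.6 to 218 CPM with sgZrsr2, and Egr1 from 441 to 1790 and from 696 to 1470 CPM. These 2 genes were named after their values were seen, to show the spread between mice of the same group. Of 6 tested Sprouty and Spred genes, inhibitors that ERK signalling induces, 2 were negative and 4 positive, with the smallest p for Spred3 at 0.38 (SE 0.18, edgeR adjusted p = 0.714).

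**Figure D5:**
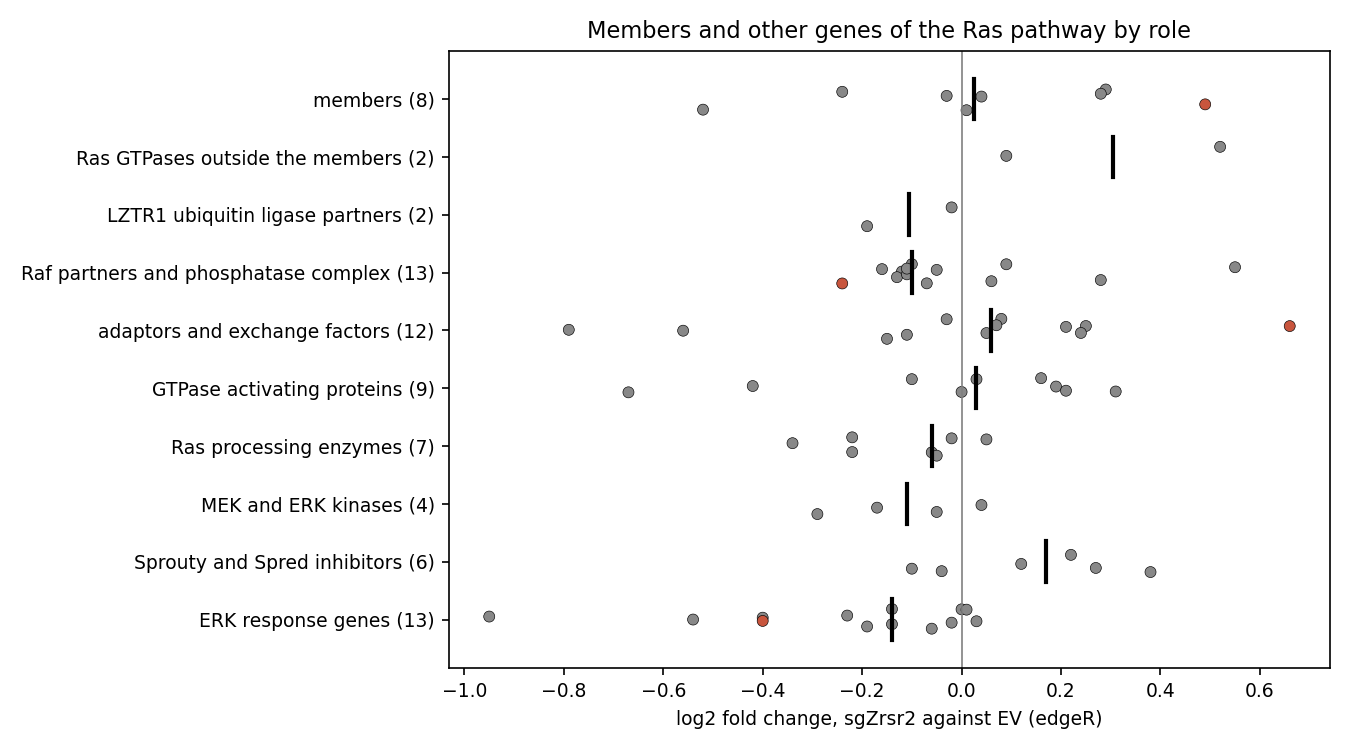
edgeR log2 fold change of sgZrsr2 against EV (horizontal axis) of the 8 members and of the 68 tested pathway genes, 1 point per gene, by role with the number tested in brackets. Black bars are medians and red points have an unadjusted p under 0.05: Rit1, Ywhae, Gab1 and Ccnd1, none of which passed the adjusted threshold.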

How the data were processed

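Polyadenylated RNA of sorted LSK cells was sequenced in 9 libraries, prepared with PCR enrichment from nanogram amounts of total RNA, per the labels' protocols. The authors deposited RSEM expected counts per Ensembl gene, not normalized. The submitters' processing notes name RSEM 1.2.30, cutadapt 1.11 and GRCm38; the aligner, annotation and strand setting are not given in the sources used here. Counts were rounded, passed through edgeR's filterByExpr at a minimum count of 10 and a total of 15 (14944 genes with 99.93% of the counts) and scaled with TMM factors. Groups were compared with edgeR 4.0.16 (quasi-likelihood test, R 4.3.3, Benjamini-Hochberg adjustment over all genes tested), and single genes also with exact permutation tests over the 126 splits. The standard error is the log2 fold change over the square root of F. Alternatives used DESeq2 1.42.0 and limma 3.58.1.

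The members, the pathway list and the markers were written from general knowledge, with earlier results of these data known. Named were all members, per role the pathway genes with an unadjusted p under 0.05 or else the smallest p, the 5 genes most like Lztr1, and the exceptions stated. Each library is numbered as 1 mouse in the labels, so p-values measure the spread between these mice. Depth limits Mras most, at 17 to 190 counts. Exon lengths and sequences are from GENCODE M21. Some genes and sequences are not reported here.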

Additional observations from a re-analysis of the deposited data

Results flagged for a closer look

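For the 8 members and Zrsr2, each group was searched for a single library apart from the others, taking the gap to its nearest neighbour as a share of the full range. This gave 18 sets, of which 2 exceeded the critical value, and about 0.9 would do so by chance. Both came from EV mouse 3. Mras was at 1.4 CPM there, while the other EV libraries held 3.73 to 4.48 CPM (gap share 0.756). Zrsr2 was at 62.2 CPM, while the other EV libraries held 50.6 to 51.9 CPM (gap share 0.883). EV mouse 3 had the lowest TMM factor of the 9 libraries, 0.894, and its part in either value was not tested.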

How the results depend on the processing

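Over 12 alternatives and 9 fits that each left out a library, no member passed the adjusted threshold. Rit1 stayed positive with an unadjusted p under 0.05 in all 21 (0.41 to 0.61, adjusted p 0.169 to 1), and its groups did not overlap under any of 4 scalings; by library totals the gap was 16.2 to 16.3 CPM. These scaling ranges were added after seeing the data. Members near 0 changed sign: Lztr1 was 0.0042 with sgZrsr2 mice 1 and 2 averaged and -0.15 to 0.02 without single libraries. Its lowest value was -0.19, with limma-voom and sample quality weights (limma-voom unadjusted p = 0.11, adjusted p = 0.4). Without EV mouse 5 and sgZrsr2 mice 3 and 5, Lztr1 was at -0.11. Nras was -0.05 without EV mouse 5 and sgZrsr2 mice 3 and 5, and -0.02 to 0.04 without single libraries. Araf was -0.05 with limma-voom and sample quality weights, -0.12 without those 3 libraries and -0.06 to 0.09 without single ones. Members at an unadjusted p under 0.05 numbered 2 with upper-quartile factors, 2 with library totals (Rit1 and Braf), 4 with limma-voom and 4 without the 3 libraries (Rit1, Mras, Rras2 and Braf), where 17.1% and 11% of all genes were under that limit; without single libraries they numbered 1 to 2. Pathway genes at that limit numbered 18 with limma-voom, 14 without the 3 libraries and 2 to 6 without single libraries (6 without EV mouse 3). The cause was not tested. All genes past the adjusted threshold numbered 16 with DESeq2, 1 with sgZrsr2 mice 1 and 2 averaged and 0 otherwise. With the mouse number as a replicate block Rit1 was at 0.46 (unadjusted p = 0.0441, edgeR adjusted p = 1), Lztr1 at -0.02 and Braf at 0.22. The deviations of same-numbered mice correlated at r = -0.23, -0.09 and -0.4 for mice 1, 2 and 3 and at 0.37 for mouse 5, the one pair of the 4 that matched best, so the numbers were not taken to pair the samples.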
